A study of Mus musculus with 4 samples.

Results

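The mouse opioid system was examined in 8 genes, chosen by symbol: the 4 receptor genes Oprm1, Oprd1, Oprk1 and Oprl1, and the 4 peptide precursor genes Penk, Pdyn, Pnoc and Pomc. All 8 were found by their Ensembl identifiers among the 41388 genes of the deposited tables. Opioid receptors are G protein-coupled receptors that signal through inhibitory G proteins. In the central endings of dorsal root ganglion neurons, where the neurons relay touch and pain to the spinal cord, they reduce calcium entry and transmitter release. Their ligands are cut by proteases from larger precursors: enkephalins come from Penk, dynorphins from Pdyn, beta-endorphin from Pomc and nociceptin from Pnoc.

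RNA sequencing was available for EGFP-positive cells that had been sorted from dorsal root ganglia of Ret-EGFP mice, with 1 female library, called female A, and 3 male libraries, called male A, B and C. A library came from the ganglia of 1 animal, taken between spinal levels T11 and S1, with 40 ganglia from the female and 20 from every male. EGFP reported Ret, the receptor tyrosine kinase of the GDNF family of growth factors, so that the libraries describe Ret-expressing cells only and not the whole ganglion. The genotype label Tg(Ret-EGFP)SJ/ names a transgene, whereas the series' design text describes heterozygotes with EGFP inserted at the Ret locus, and the background is C57BL/6 in one and C57BL/6J in the other. Every library carries the stage label P2 (postnatal day 2), yet the dissociation protocol cited is one for E18.5 mice. By the labels of pool size and treatment, together called the pool label below, female A and male A were each taken from a P2 mouse. The same labels name embryos for male B and C. The pairs are called here the P2-mouse pair and the embryo pair after those labels. What the labels stand for (age, collection or library preparation) cannot be told apart, and the only female is in the P2-mouse pair.

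The libraries held between 17388493 and 28066448 gene counts, so that 3 counts corresponded to between 0.107 and 0.173 CPM (counts scaled to the library's sum of gene counts). No pair of libraries agreed within sampling noise, with a chi-square per degree of freedom of at least 10.7. Ret itself was at 31.8 RPKM (CPM per kilobase of exon) in female A and 31.6 in male A, with 37.0 in male B and 32.7 in male C. The tissue label was checked against marker lists. Peptidergic nociceptor markers summed to between 2475 and 5370 CPM. Schwann cell markers, of cells other than neurons, summed to between 3073 and 7974 CPM. Of 8 spinal dorsal horn markers, Gad2, Slc32a1, Slc6a5 and Lbx1 had 0 counts in every library, as did the pituitary gene Prl, while Gad1 had 59 to 142 counts.

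The precursors differ in the opioid peptides that they hold, and the stretches that encode them are described here. Counts are of reads over all exons of a gene, and no peptide was measured. In the longest coding sequence of each gene in GENCODE M21 (GRCm38), the codons of Met-enkephalin occurred 6 times in Penk and 1 time in Pomc, where they begin beta-endorphin. The codons of Leu-enkephalin occurred 1 time in Penk and 3 times in Pdyn, where they begin the dynorphins and neoendorphin. Nociceptin begins with phenylalanine rather than tyrosine, and its start occurred 1 time in Pnoc. Each copy directly followed a pair of codons for basic residues, the kind of site at which prohormone convertases cut. One example of each is shown with 6 bases on each side, the codons of the peptide core in capitals.
Penk, Met-enkephalin: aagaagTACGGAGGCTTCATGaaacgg
Penk, Leu-enkephalin: aagaggTATGGGGGCTTCCTGaagcgc
Pdyn, Leu-enkephalin: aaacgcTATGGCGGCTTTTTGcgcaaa
Pomc, Met-enkephalin: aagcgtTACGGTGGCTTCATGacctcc
Pnoc, nociceptin: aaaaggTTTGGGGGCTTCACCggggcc

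Oprl1 and Oprm1 are the 2 genes whose levels the comparison of the pairs turned on, so the 250 bases before a start of each are shown from RefSeq (GRCm38.p6, plus strand). RefSeq windows were found for 5 of the 8 genes. The Oprl1 window, chr2:181714766-181715015, is the one of 3 listed that directly precedes the gene's annotated start. The Oprm1 window, chr10:6788326-6788575, is the last of 3 along the chromosome. Capitals mark a match to TATAAA on the reverse strand.
Oprl1: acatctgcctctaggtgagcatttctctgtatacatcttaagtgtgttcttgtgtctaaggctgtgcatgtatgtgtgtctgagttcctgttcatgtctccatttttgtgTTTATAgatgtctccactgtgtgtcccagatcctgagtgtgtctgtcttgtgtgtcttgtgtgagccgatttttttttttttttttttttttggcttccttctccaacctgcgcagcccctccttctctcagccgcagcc
Oprm1: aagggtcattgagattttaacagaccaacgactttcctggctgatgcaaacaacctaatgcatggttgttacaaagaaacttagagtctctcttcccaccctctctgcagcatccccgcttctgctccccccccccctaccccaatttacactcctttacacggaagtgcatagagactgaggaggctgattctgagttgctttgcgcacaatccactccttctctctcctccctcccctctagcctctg
Motifs were searched on both strands in windows of 250 bases before and 50 after a start, and no match overlapped another. The TATA box, spelled TATAAA, occurred in 13.6% of the 32851 RefSeq windows. The GC box, spelled GGGCGG, occurred in 35.7% of them. The CRE half-site, spelled TGACG, occurred in 20.8% and the E-box, spelled CACGTG, in 7.15%. The Oprl1 window held 1 TATA box match, which begins at -140 counted from the start, and the other 2 Oprl1 windows held no match to any of the 4 motifs. None of the 3 Oprm1 windows held a match. Their GC contents were 47.7% and 52.3%, beside a median of 52.7%. The single Oprd1 window was the richest in GC among those of the 5 genes, at 79.3%, above 98.7% of all windows, and held 4 GC box matches and 1 E-box match. The match positions are a description of letters, not of factor binding.

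Receptor RNA was led by Oprl1, the gene of the nociceptin receptor (ENSMUSG00000027584, GRCm38 chr2:181715016-181720985, plus strand). Its level was 4.48 RPKM in female A and 3.89 in male A, with 9.53 in male B and 8.01 in male C, from 254 to 811 counts. Both libraries of the embryo pair lay above both of the P2-mouse pair. The mean over the 4 libraries was 6.48 ± 2.73 RPKM (SD, n = 4), higher than in 76.5% of the 25075 genes with a count.

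Oprm1 encodes the mu receptor, the main target of morphine (ENSMUSG00000000766, chr10:6758506-7038198, plus strand). Its level was 2.42 RPKM in female A and 1.90 in male A, with 0.993 in male B and 0.989 in male C, from 181 to 546 counts. Here the P2-mouse pair was the higher one, without overlap, and female A was above all 3 males. Oprm1 spans 279693 bases with 31 annotated transcripts, and 96 bases of its exons (1.19%) overlap the antisense gene Ipcef1, which had 27 to 102 counts. No source used here gives the strand setting of the counting, so reads from those bases cannot be assigned to one gene.

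Oprk1 encodes the kappa receptor, which binds dynorphins (ENSMUSG00000025905, chr1:5588493-5606131, plus strand). Its level was the steadiest of the 8 genes, at 1.27 RPKM in female A and 1.45 in male A, with 1.14 in male B and 1.13 in male C, from 173 to 243 counts. The P2-mouse pair lay slightly above the embryo pair. Oprd1 encodes the delta receptor, which binds enkephalins (ENSMUSG00000050511, chr4:132110726-132144486, minus strand). Its level was 0.337 RPKM in female A and 0.114 in male A, with 0.187 in male B and 0.200 in male C. The pairs overlapped, since female A was the highest and male A the lowest of the 4. Male A held 8 counts, with a 95% exact Poisson interval of 3.45 to 15.8, and such intervals cover counting error only because the libraries carried no molecular identifiers.

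Summed over the 4 genes, precursor RNA was lower than receptor RNA, at 2.40 to 4.48 RPKM against 7.36 to 11.9. Gene by gene the levels of the groups overlapped. Pomc, the precursor of beta-endorphin and of the melanocortins (ENSMUSG00000020660, chr12:3954951-3960618, plus strand), was at 1.31 RPKM in female A and 2.06 in male A, with 2.15 in male B and 2.23 in male C. Female A was the lowest, and the 3 males lay close together, on 36 to 56 counts. Corticotrophs of the pituitary are a classic source of Pomc. The pituitary markers Tbx19, Crhr1, Neurod4, Gh and Prl summed to 0.285, 0.575, 1.10 and 1.08 CPM in female A, male A, male B and male C. On the same scale Pomc was at 1.32, 2.07, 2.16 and 2.25 CPM. The source of the Pomc RNA was not tested.

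Penk, the enkephalin precursor (ENSMUSG00000045573, chr4:4133531-4138819, minus strand), was at 0.720 RPKM in female A and 0.669 in male A, with 1.13 in male B and 1.67 in male C. The embryo pair was higher without overlap, on 19 to 68 counts. An antisense gene, A830012C17Rik, overlaps 233 bases (14.3%) of its exons and had 0 counts in every library.

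Pdyn and Pnoc were near the limit of detection. Pdyn, the dynorphin precursor (ENSMUSG00000027400, chr2:129686565-129699844, minus strand), had 18, 9, 8 and 12 counts in female A, male A, male B and male C, or 0.222, 0.179, 0.122 and 0.167 RPKM. The P2-mouse libraries were the higher ones in RPKM only, since male A held 9 reads and male C 12. Pnoc, the nociceptin precursor (ENSMUSG00000045731, chr14:65400673-65425472, minus strand), had 9, 5, 2 and 22 counts in the same order, or 0.149, 0.133, 0.0409 and 0.410 RPKM. The highest and the lowest value were both in the embryo pair, and the 2 counts of male B have an exact 95% interval of 0.242 to 7.22. RNA of the nociceptin receptor thus stood at 3.89 RPKM or more in every library, and RNA of the nociceptin precursor at 0.410 RPKM or less.

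**Figure D1:**
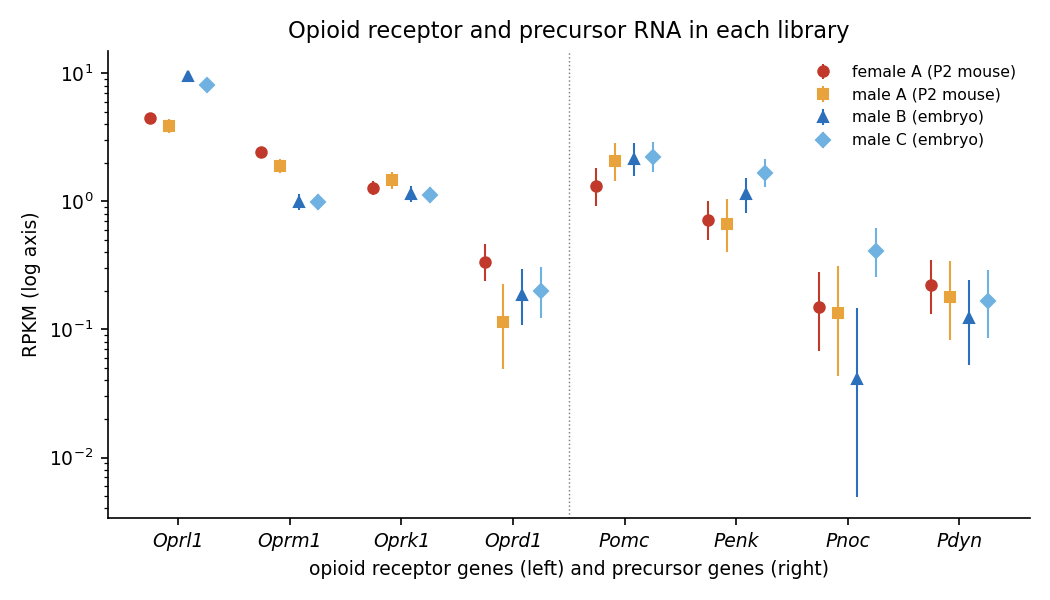
RPKM on a log axis for each of the 8 opioid genes (receptors left of the dotted line, precursors right), one point per library with its exact 95% Poisson interval. Oprl1 is the highest gene in every library, from 3.89 to 9.53 RPKM, and the P2-mouse libraries (circle, square) lie below the embryo libraries (triangle, diamond) in Oprl1 and above them in Oprm1.

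By mean RPKM the order was Oprl1 (6.48 ± 2.73), Pomc (1.94 ± 0.424), Oprm1 (1.57 ± 0.707), Oprk1 (1.25 ± 0.152), Penk (1.05 ± 0.465), Oprd1 (0.209 ± 0.0928), Pnoc (0.183 ± 0.158) and Pdyn (0.173 ± 0.0411), each with SD over n = 4 libraries. Only at 2 steps of this order did the ranges of neighbours not overlap. Oprl1 was above Pomc by 1.89 to 4.44 times within a library, and Penk was above Oprd1 by 2.14 to 8.37 times. Pomc, Oprm1, Oprk1 and Penk overlapped as a middle group, and Oprd1, Pnoc and Pdyn overlapped as a low one. Relative to Ret in the same library all 8 genes kept their place in the order of means. Dividing by Ret cannot change the order within a library, so this is no check of that order.

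The order of the receptors depends on the length to which counts are divided. The exon length of Oprm1 in the files is 8037 bases, the union over its transcripts, whereas its longest coding transcript has 2420 bases, and for Oprl1 the lengths are 3753 and 3102. Per kilobase of the longest coding transcript, a setting chosen after the data were seen, Oprm1 was at 8.04 CPM in female A and 6.30 in male A, with 3.30 in male B and 3.29 in male C. On that scale Oprl1 was at 5.42, 4.71, 11.5 and 9.70 in the same order, so Oprm1 was above Oprl1 in the P2-mouse pair and below it in the embryo pair. The ratio of Oprl1 to Oprm1 was 0.674 in female A and 0.748 in male A, with 3.50 in male B and 2.95 in male C with these lengths, and 1.85, 2.05, 9.60 and 8.10 in RPKM. Which receptor RNA was the more abundant in the P2-mouse pair thus turns on the length used, while the difference in the ratio between the pairs does not, since each gene's length is the same in every library. 4 of the 8 genes kept their place in the order with the longest coding transcript.

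As a share of the summed receptor RPKM, Oprl1 made up 52.7% in female A and 52.9% in male A, with 80.4% in male B and 77.6% in male C. Oprm1 made up 28.5%, 25.8%, 8.38% and 9.58%. Libraries with the same pool label were within a few percentage points of each other, and the pairs were far apart. Of the summed precursor RPKM, Pomc made up 54.6%, 67.7%, 62.3% and 49.8% in the same order, and the pairs overlapped. Penk made up 30.0%, 22.0%, 32.9% and 37.3%, higher in the embryo pair without overlap. Pdyn made up 9.26%, 5.90%, 3.55% and 3.73%, higher in the P2-mouse pair without overlap but on 18 counts or fewer, and Pnoc overlapped.

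**Figure D2:**
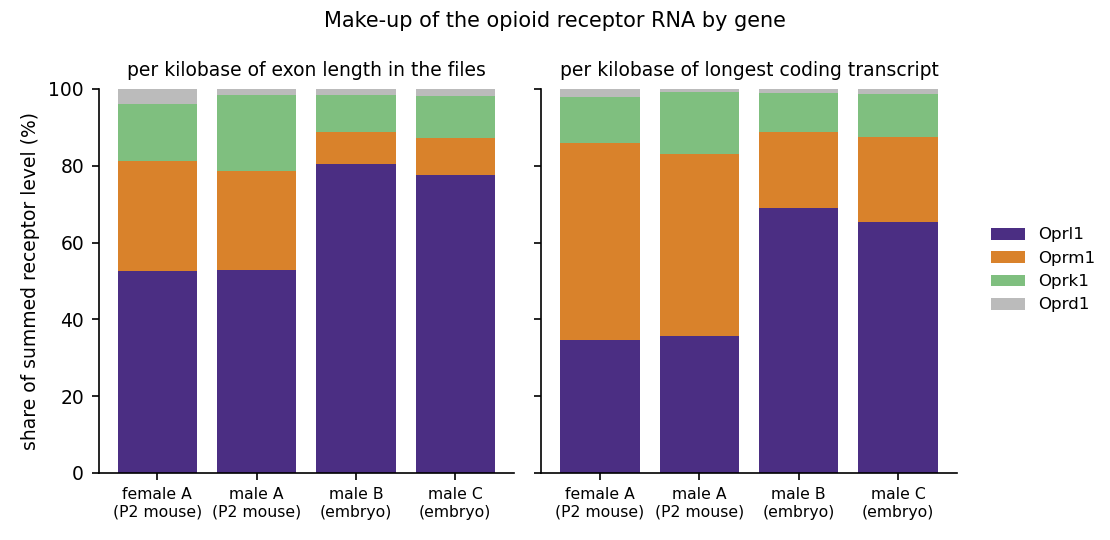
Share in percent of the summed receptor level taken by each of the 4 receptor genes in each library, per kilobase of the exon length in the files (left) and of the longest coding transcript (right). In the left panel Oprl1 takes 52.7% and 52.9% in the P2-mouse pair against 80.4% and 77.6% in the embryo pair, and in the right panel Oprm1 is the largest share in the P2-mouse pair.

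The difference between the pairs was tested with edgeR's quasi-likelihood test across 15568 genes, with Benjamini-Hochberg adjustment over all of them and a threshold of 0.05. Each side holds 2 libraries from separate animals, so p-values measure only the spread between these libraries. Oprl1 was 0.442 times as high in the P2-mouse pair as in the embryo pair, a log2 fold change of -1.18 (SE 0.161, edgeR adjusted p = 0.00102). Oprm1 was 2.01 times as high, a log2 fold change of 1.01 (SE 0.198, edgeR adjusted p = 0.00508). These were the 2 genes called among the 7 tested, 1 in each direction. In bulk libraries a change of this kind may be a change in the share of cells of a type or in the RNA per cell, and the 2 cannot be told apart.

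The count of 2 of 7 is to be read against a background in which 42.3% of all genes tested were called, 22.3% (3472) higher in the P2-mouse pair and 20.0% (3112) lower. The opioid genes were therefore not called more often than other genes. With libraries scaled to their Ret counts the split over all genes was 4325 higher and 1610 lower and the median log2 fold change of all genes moved from 0.02 to 0.26, beside which Oprl1 was at -0.93 and Oprm1 at 1.26, both still called. Ret itself had a log2 fold change of -0.25 between the pairs (edgeR adjusted p = 0.0660).

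Oprl1 was called under each of the 13 alternatives run, with log2 fold changes between -1.34 and -0.93. Oprm1 kept its direction in all 13, between 0.59 and 1.26, and was called in 10. It was not called with sex as a term (0.83, edgeR adjusted p = 0.0575), without female A (0.84, edgeR adjusted p = 0.0604), or with sex together with offsets for GC content and length (0.59, edgeR adjusted p = 0.169), a setting added after the data were seen. The setting with male A as the sole P2-mouse library is the one that leaves out the female, and there Oprm1 in male A was 1.79 times the level of male B and male C.

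Penk was 0.459 times as high in the P2-mouse pair, a log2 fold change of -1.12 (SE 0.416), which missed the threshold (edgeR adjusted p = 0.0627) although the pairs did not overlap. It passed with no filter on low counts (adjusted p = 0.0361) and without male B (-1.38, adjusted p = 0.0403), and was at -0.65 with the offsets for GC content and length. Pomc was at -0.51 (SE 0.404, edgeR adjusted p = 0.344), and at 0.28 with the offsets and sex as a term.

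Oprk1 was at 0.15 (SE 0.208, edgeR adjusted p = 0.610), and turned to -0.58 (adjusted p = 0.0609) with the offsets for GC content and length. Its transcripts have a GC content of 43.9%, lower than in all but 14.0% of the genes tested. Oprd1 was at 0.15 (SE 0.608, edgeR adjusted p = 0.863) and turned to -0.86 (adjusted p = 0.489) with sex as a term. Pdyn was at 0.36 (SE 0.574, edgeR adjusted p = 0.647). Pnoc had too few counts to enter the test. A miss of the threshold at 2 libraries a side does not show that these levels were alike.

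**Figure D3:**
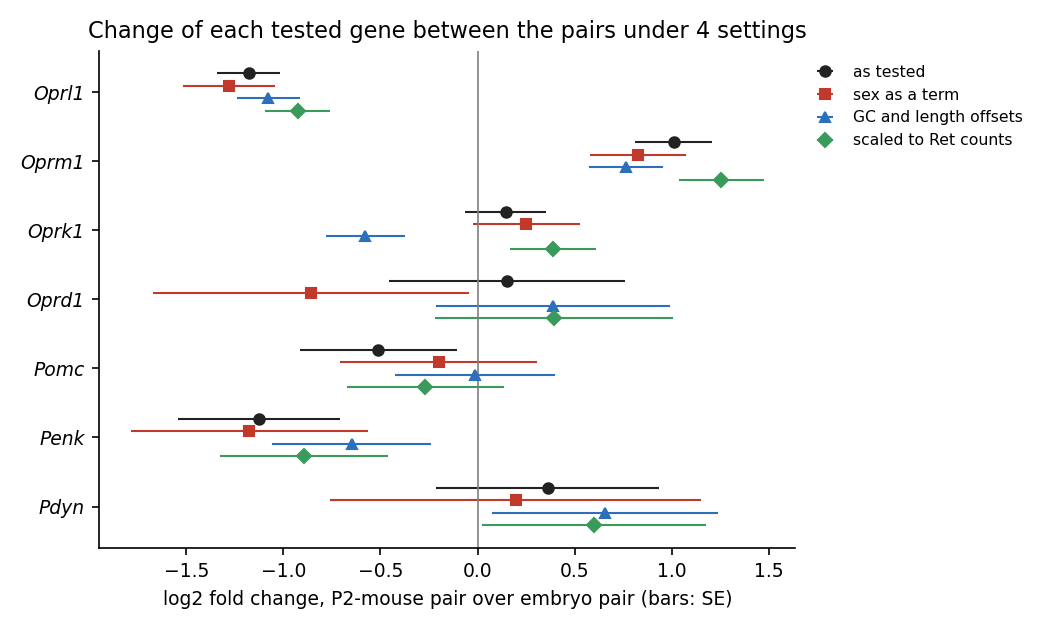
Log2 fold change of the P2-mouse pair over the embryo pair for the 7 genes tested, with bars for the SE, as tested with edgeR and under 3 other settings. Oprl1 lies between -1.28 and -0.93 and Oprm1 between 0.76 and 1.26 in the settings drawn, while Oprk1 and Oprd1 fall on both sides of 0.

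Markers of other cells differed between the same pairs. Of the Schwann cell markers, 9 of 10 were called higher in the P2-mouse pair (median log2 fold change 2.18). The list summed to 5009 and 7974 CPM there against 3073 and 3105 in the embryo pair. Most of each sum was Pmp22, with a mean of 2942 CPM over the 4 libraries. Pmp22 was the marker not called (log2 fold change 0.41, edgeR adjusted p = 0.108). Of 8 fibroblast markers, 7 were tested and 5 called higher, and the list summed to 1386 and 1523 CPM against 308 and 327. Of 6 peptidergic nociceptor markers, 5 were called lower (median -1.17), from sums of 5370 and 5117 CPM in the embryo pair to 2478 and 2475, and no defining marker of these lists was at 0. Of the nonpeptidergic nociceptor markers 3 of 6, and of the myelinated mechanoreceptor markers 4 of 6, were called lower, and none of either higher. Markers of cells other than neurons did not all rise. Of 6 satellite glia markers 2 were called higher and 2 lower (median -0.05), and of 6 endothelial and mural markers 3 higher and 0 lower. These counts stand beside 22.3% of all genes called higher and 20.0% lower. Oprl1 moved in the direction of the neuronal lists, Oprm1 in the other, and the part of cell mixture in either result was not tested.

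The series' title names the comparison of the sexes, which rests on 1 female library. In female A against the 3 males, 0 of the 8 opioid genes and 0.00% of 16708 genes tested were called by edgeR. At an unadjusted p under 0.05 there were 0 opioid genes and 129 genes in all. DESeq2 called 1 gene higher and 4 lower and limma-voom called 0, with 0 opioid genes in either. The lone female is assumed in this test to vary like the males, whose spread contains the difference between the pairs.

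Oprm1 was at 2.42 RPKM in the female against 1.29 ± 0.522 (SD, n = 3) in the males, a log2 fold change of 0.83 (SE 0.474, edgeR adjusted p = 0.951). Oprl1 was at -0.78 (SE 0.617), Penk at -0.80 (SE 0.762) and Pomc at -0.80 (SE 0.572), each with an edgeR adjusted p of 0.951. With the pool label as a term, Oprl1 moved to 0.18 and Penk to 0.09, and Oprm1 to 0.33 (SE 0.286, edgeR adjusted p = 1.0). Within the P2-mouse pair, the sole pair with both sexes, Oprm1 was at 2.42 RPKM in the female and 1.90 in the male, and Oprl1 at 4.48 and 3.89, with no replicate to test either. Without male A, the comparison of the sexes and that of the pairs are the same, and Oprm1 (1.17, edgeR adjusted p = 0.0223) and Oprl1 (-1.09, edgeR adjusted p = 0.0212) were called.

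The genes that make, break down and act with opioid peptides and receptors were followed in 8 further lists, of which 53 genes were tested between the pairs. In all 24 (45.3%) were called by edgeR, 8 higher in the P2-mouse pair and 16 lower, beside the 42.3% of all genes. Their median log2 fold change was -0.26, beside 0.02 over all genes. With libraries scaled to Ret counts the counts became 10 higher and 5 lower, the 5 being Pcsk1, Dpp3, Ece2, Grk2 and Rgs19, and with the GC and length offsets 4 higher and 15 lower. The split of the calls moved with the scaling, as did that of all genes. Over all genes, 4325 were higher and 1610 lower with scaling to Ret, and 1948 higher and 3158 lower with the offsets. The pathway median stayed below that of all genes, at -0.02 beside 0.26 with scaling to Ret and -0.29 beside -0.08 with the offsets.

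The enzymes and helpers that process precursors ranged in level from Furin, at 0.508 to 0.981 RPKM, to Ctsl, at 411 to 553 RPKM, among those tested. Of 10 genes 9 were tested, 1 was called higher and 4 lower. Pcsk1, a prohormone convertase that cuts at basic pairs, was at 4.78 and 4.84 RPKM in the P2-mouse pair and 8.92 and 6.86 in the embryo pair (log2 fold change -0.83, edgeR adjusted p = 0.00755). Furin, a convertase of the secretory pathway, fell by 0.76 and Ctsl, a protease that also processes proenkephalin, by 0.51 on the log2 scale. With libraries scaled to Ret counts Furin (-0.51) and Ctsl (-0.27) were not called. Cpd, a carboxypeptidase that trims basic residues, rose by 0.93, while Cpe, its relative in secretory granules, was at 0.02, with 414 to 495 RPKM. With the offsets for GC content and length Cpd was at 0.30 and not called.

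Of 8 peptidases that degrade opioid peptides, 2 were called higher and 2 lower. Mme, neprilysin, a membrane enzyme that cuts enkephalins, was at 3.15 and 4.73 RPKM in the P2-mouse pair and 1.12 and 1.00 in the embryo pair. Its log2 fold change was 1.77 (SE 0.259, edgeR adjusted p = 0.00137), the largest among the called genes of the 8 lists, and it was called in all 13 alternatives. Lnpep, an aminopeptidase that cuts small peptide hormones, rose by 1.26, but was at 0.50 and not called with the GC and length offsets. Dpp3, a cytosolic dipeptidyl peptidase that cleaves enkephalins, fell by 0.83 and Ece2, an endothelin-converting enzyme, by 0.89. Npepps, a cytosolic aminopeptidase, was at 0.11 and not called, and with the offsets was called lower, at -0.55 (edgeR adjusted p = 0.00546).

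The inhibitory G proteins that opioid receptors use were split. Gnao1, the main inhibitory alpha subunit of neurons, was at 84.7 to 94.8 RPKM in the 4 libraries with a log2 fold change of -0.09, not called. Gnai3 was at 93.3 and 99.6 RPKM in the P2-mouse pair and 40.7 and 45.0 in the embryo pair (log2 fold change 1.06, edgeR adjusted p = 0.000246), and Gnai1 rose by 0.72. Gnai2 and Gnaz fell by 0.60 and 0.56. With the GC and length offsets Gnai3 was the one of these 4 still called, at 0.41.

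Regulators that end receptor signalling were lower in the P2-mouse pair where they were called, apart from 2 RGS genes. Of 6 receptor kinases and arrestins, Grk2, the kinase that phosphorylates active mu receptors, fell by 0.84 and Grk6 by 0.61. Arrb1, an arrestin that binds the phosphorylated receptor, was at -0.19 and not called. Of 8 RGS proteins, which speed the turn-off of inhibitory G proteins, 2 were called higher and 4 lower. Rgs19 was at 24.3 and 21.9 RPKM in the P2-mouse pair and 41.9 and 39.2 in the embryo pair (log2 fold change -0.92, edgeR adjusted p = 0.000645). Its annotated span lies 21039 bases before the start of Oprl1 on chromosome 2, on the other strand. Rgs19 was called lower in the same pair as Oprl1, as were 20.0% of all genes tested. Other genes near Oprl1 were not looked up. Rgs14 fell by 0.96, Rgs10 by 0.49 and Rgs4, the most abundant of the list, by 0.39. Rgs7 and Rgs17 rose by 0.47 and 0.86. With the GC and length offsets Grk6 (-0.28), Rgs14 (-0.54), Rgs10 (-0.17) and Rgs7 (0.20) were not called and Rgs17 turned to -0.12, not called, while Grk2, Rgs4 and Rgs19 were called.

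Among the channels that opioid receptors act on, 8 were listed, 5 were tested and 0 were called in the pair comparison by edgeR, beside 42.3% of all genes. At an unadjusted p under 0.05 there were 0 of the 5, beside 7904 of the 15568 genes, and DESeq2 and limma-voom called 0 of the 5. Cacna1b, the pore of the presynaptic N-type calcium channel, was at 15.7, 12.8, 16.1 and 12.9 RPKM in female A, male A, male B and male C, so the pairs overlapped. Kcnj3, a subunit of the potassium channels opened by inhibitory G proteins, was at 5.25, 5.41, 4.45 and 4.07 RPKM. Its partner subunits Kcnj5, Kcnj6 and Kcnj9 had at most 6 counts in any library. Of 7 adenylyl cyclases, the enzymes that these receptors inhibit, Adcy2 and Adcy5 fell by 0.76 and 0.79. With libraries scaled to Ret counts Adcy2 (-0.52) and Adcy5 (-0.55) were not called. Of 5 genes for receptor sorting and scavenging, 1 was called: Gprasp1, a protein that sends internalized delta receptors to degradation, rose by 0.80, and was at 0.20 and not called with the offsets, while its relative Gprasp2 was at -0.18.

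**Figure D4:**
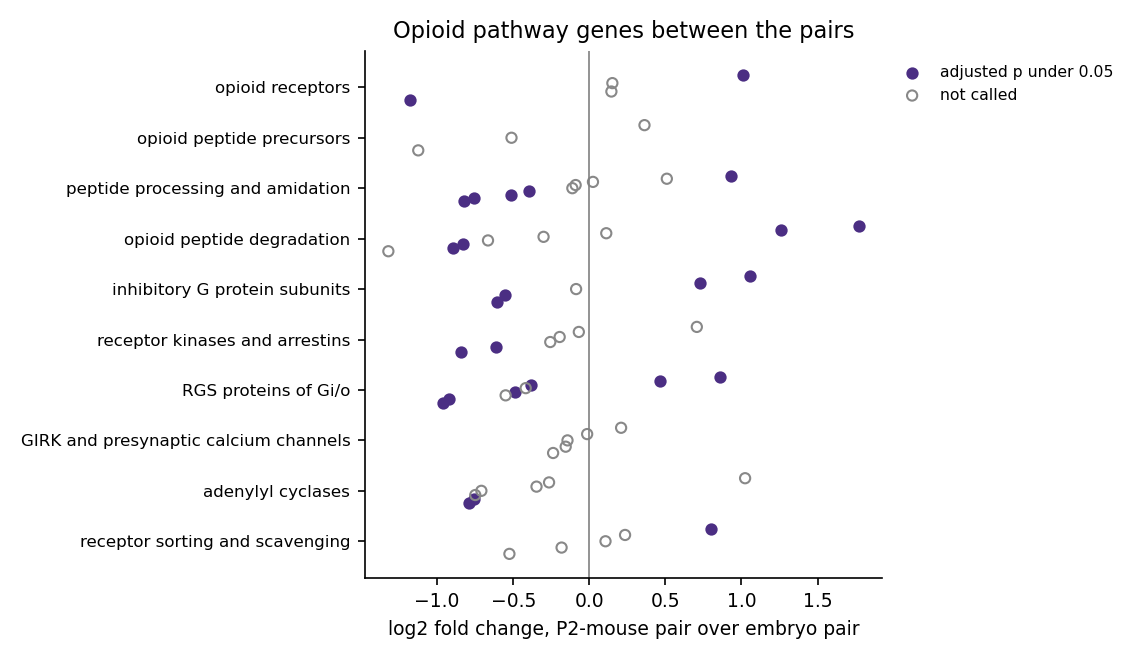
Log2 fold change of the P2-mouse pair over the embryo pair for each tested gene of the receptor and precursor lists and of 8 opioid pathway lists, filled where the edgeR adjusted p is under 0.05. Of the 53 pathway genes 8 filled points lie right of 0 and 16 left of it, and the farthest filled point to the right is Mme at 1.77.

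For the 5 opioid genes with at least 10 counts in every library, the genes most like each were sought by Euclidean distance over the 4 libraries on the log2(CPM + 0.5) scale, which counts level as well as pattern. Mex3a was nearest to Oprm1 (distance 0.140) and Zfc3h1 next. Prr3 was nearest to Oprl1 (0.149), then H2-T24, which was outside a distance of 0.2. Cdan1 and Tgfa were nearest to Oprk1, Iba57 and Slc16a9 to Penk, and Nfix and Gdpd2 to Pomc. Among 15567 genes compared, between 1 and 4 lay within 0.2 of a given gene.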

How the data were processed

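RNA from sorted Ret-EGFP-positive cells was measured in 4 libraries. Per the submitters' processing notes, the authors obtained the deposited count of reads per gene with featureCounts 1.4.5 (Subread) on GRCm38.p2. A recomputation from the counts gave the deposited CPM, scaled to each library's sum of gene counts, and the deposited RPKM, which is CPM per kilobase of exon. Per the labels' protocols, 10 ng of RNA was amplified with a SMARTer low-input kit, which can shift counts with GC content and length. Aligner, annotation release, strand setting and handling of multiply mapped reads: not given in the sources used here. Gene symbols came from GENCODE M21 (97.3% of genes matched).

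The pairs, and female against male, were compared with edgeR 4.0.16 in R 4.3.3 (quasi-likelihood F test, TMM factors of 0.961 to 1.05, filterByExpr with a minimum count of 10 and total of 15, Benjamini-Hochberg threshold 0.05, 2 residual degrees of freedom). The SE of a log2 fold change rests on a spread moderated across genes. Alternatives were relative log expression factors, scaling to Ret, no filter on low counts, a filter at a mean of 1 CPM, DESeq2 1.42.0, limma-voom (limma 3.58.1), GC and length offsets (mgcv 1.9.3), a term for sex or pool label, and leaving out each library. The tests were checked on simulated data.

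The genes named are the 8 opioid genes, Ret, the 2 most abundant genes of each pathway list with up to 3 called per direction by size of change, and the 2 nearest genes of each opioid gene with 10 counts in every library. Rgs4 entered as abundant. Members and lists were chosen with earlier results of these data known.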

Additional observations from a re-analysis of the deposited data

How the results depend on the processing

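The count of opioid genes called between the pairs fell from 2 to 1 with sex as a term and with sex plus the GC and length offsets, and lay between 1 and 3 with each library left out. Between the sexes it was 0, and between 0 and 2 with each male left out, the 2 appearing without male A. Of the pathway genes 24 were called between the pairs, 15 with libraries scaled to Ret, 7 with offsets and sex as a term, and 14 to 26 with each library left out, the 14 without male A. Between the sexes it was 0, and 0 to 14 with each male left out, again without male A. Calls over all genes between the pairs moved as well. As tested they were 3472 higher and 3112 lower of 15568, and with scaling to Ret 4325 and 1610. With sex as a term they were 2200 and 1769 of 16708, and with offsets and sex 730 and 1216 of 16599. The order of the 8 genes kept 3 places by CPM and 4 per kilobase of the longest coding transcript.

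Between the pairs, log2 fold changes changed sign as follows. With sex as a term Oprd1 was at -0.86. With the offsets Oprk1 was at -0.58, Cpe at -0.083, Kcnj3 at -0.38, Npepps at -0.55 and Rgs17 at -0.12. With offsets and sex Oprd1 was at -0.58, Oprk1 at -0.49, Pomc at 0.28, Cpe at -0.12, Kcnj3 at -0.38, Npepps at -0.55 and Rgs17 at -0.047. With scaling to Ret, Arrb1 was at 0.042, Cacna1b at 0.11, Gnao1 at 0.15 and Gprasp2 at 0.060. With each library left out, Oprd1 lay between -0.85 and 0.68, Cacna1b between -0.34 and 0.015, and Cpe between -0.13 and 0.13. Between the sexes, with the pool label as a term Oprl1 was at 0.18, Penk at 0.086 and Pnoc at 0.14, and Oprk1 was at 0.10 with scaling to Ret and between -0.11 and 0.039 with each male left out. The cause of these changes was not tested. No paired analysis was possible because the groups share only 1 replicate number. Depth limited Pdyn and Pnoc most, which had at most 22 counts in a library.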
